A study of Homo sapiens with 6 samples.

Results

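MicroRNA genes were examined in SKOV3 cells, a human line established from ovarian carcinoma. The rows described here are those that GENCODE 29 annotates as microRNA genes and that had a mean of at least 1 FPKM (fragments scaled by the exonic length of the gene and by the fragments of the library) over 6 RNA sequencing libraries. Of 58735 gene rows, 1879 were microRNA genes, 288 of these held a fragment in at least 1 library, and 76 met the rule. The rows were thus chosen by their mean FPKM over both groups, and their levels are given as a description. Cells of 3 libraries carried a lentivirus with human TIPE2 cDNA (genotype TIPE2 overexpression) and cells of the other 3 carried the empty vector. The groups are called TIPE2 and Vector here, with libraries 1 to 3 in each. TIPE2 is the product of TNFAIP8L2, and the comparison asks which transcripts differ when it is expressed. The protocol in the labels describes stable cells selected with puromycin. It names no promoter for the transgene and leaves unsaid whether each library is its own transduction. The titles call the 3 libraries of a group biological replicates, and the tests use the spread between them.

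A microRNA gene is transcribed as part of a longer primary transcript, often from an intron of a protein-coding or non-coding host gene. The nuclear enzyme DROSHA with DGCR8 cuts out a hairpin, XPO5 exports it, DICER1 trims it, and an Argonaute protein loads the short mature strand, which finds targets mainly through its seed. Mirtrons are a further class whose hairpin ends are set by splicing of a short intron. The annotated row is the hairpin, between 55 and 110 bases long in the 76 rows (median 80.5), and the labels name standard Illumina library protocols with no small RNA step. The values are therefore fragments assigned to hairpin rows, not levels of mature microRNA. In RNA of whole cultures, fewer cells with a transcript and less of it per cell cannot be told apart.

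Mature sequences of 71 of the 76 microRNA genes were found in RefSeq (GRCh38.p14), 113 sequences with 105 different seeds (bases 2 to 8, in capitals). The first set is shown because its genes were among the 4 with the smallest p in each direction of the comparison of TIPE2 with Vector, MIR1244-3 not shown.
hsa-miR-6814-5p: uCCCAAGGgugagaugcugcca
hsa-miR-2116-3p: cCUCCCAUgccaagaacuccc
hsa-miR-23b-3p: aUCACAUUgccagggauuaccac
hsa-miR-27b-3p: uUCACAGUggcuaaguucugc
hsa-miR-210-3p: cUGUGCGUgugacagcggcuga
hsa-miR-378j: aCUGGAUUuggagccagaa
hsa-miR-6775-5p: uCGGGGCAugggggagggaggcugg

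A second set is shown because 13 of the genes shared 7 seeds among them. The let-7 genes MIRLET7A2, MIRLET7D and MIRLET7I, MIR221 with MIR222, MIR93 with MIR106B, and MIR149 with MIR4728 were such groups.
hsa-let-7a-5p: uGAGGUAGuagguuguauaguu
hsa-let-7d-5p: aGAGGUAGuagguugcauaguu
hsa-let-7i-5p: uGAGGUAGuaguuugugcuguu
hsa-miR-221-3p: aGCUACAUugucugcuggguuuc
hsa-miR-222-3p: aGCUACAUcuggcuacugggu
hsa-miR-93-5p: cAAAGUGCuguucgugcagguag
hsa-miR-106b-5p: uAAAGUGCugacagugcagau
hsa-miR-149-3p: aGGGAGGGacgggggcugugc
hsa-miR-4728-5p: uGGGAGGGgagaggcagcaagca
MIR6812 and MIR6819 shared the seed UGGGGUG, and the identical copies MIR6859-1 and MIR6859-3 shared both of theirs. MIR23B and MIR27B, which lie in the same intron of C9orf3, have different seeds.

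The libraries held between 15983317 and 18583473 fragments assigned to genes. TNFAIP8L2 had between 47.2 and 58.4 FPKM in TIPE2 and at most 0.0476 FPKM in Vector libraries, as labelled. Of 12 epithelial and ovarian carcinoma markers 9 had at least 1 FPKM, among them KRT8, PAX8 and ERBB2, whereas MUC16, WT1 and CDH1 were below it. None of the 5 leukocyte and 4 endothelial markers and 2 of the 5 fibroblast markers reached 1 FPKM. The summed fibroblast level lay between 1.65 and 7.81 FPKM in TIPE2 and between 1.97 and 4.90 FPKM in Vector libraries; its part in the results was not tested. Libraries of 1 group correlated at 0.969 to 0.989 in log2(FPKM + 1) and libraries of different groups at 0.960 to 0.985. TIPE2 3 was closer to Vector 3 (0.985) than to TIPE2 1 (0.972), and the values without each library are given at the end.

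Few fragments stood behind these levels. The 76 rows held 3636 fragments in all 6 libraries together, 0.00355% of all fragments, and the median row held 22. A single fragment on a row of 80 bases was worth between 0.651 and 0.791 FPKM. Only 12 rows averaged 10 or more fragments per library and 32 averaged under 3, while the median tested gene, 4591 bases long, had 555 per library. All 6 libraries held a fragment of 40 rows, and 8 rows had fragments in only 2 or 3 libraries. The mean FPKM ran from 1.02 to 100.8 with a median of 2.63, and 31 rows lay below 2 FPKM. Just inside the rule were MIR7856 (1.04 FPKM, 6 fragments) and MIR5094 (1.02 FPKM, 9 fragments), and just outside it MIR132 (0.996 FPKM, 10 fragments) and MIR1180 (0.991 FPKM, 7 fragments). The spread between libraries of a group, as a chi-square per degree of freedom of the fragments, was 2.03 over these rows. It was 2.17 over 217 other tested genes with under 10 fragments per library and 35.1 over all 12538 tested genes; counting alone gives 1 on this scale.

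**Figure D1:**
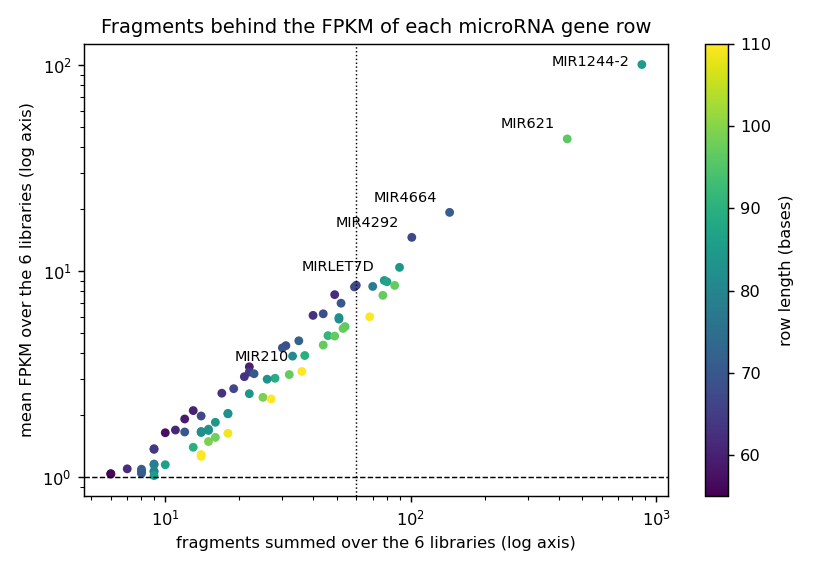
Mean FPKM over the 6 libraries (log axis) against the summed fragments (log axis) of each of the 76 microRNA gene rows, coloured by row length in bases. The dashed line marks 1 FPKM and the dotted line 60 fragments, 10 per library; 64 rows lie left of the dotted line, and MIR1244-2 and MIR621 stand at the upper right.

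The fragments were concentrated in a pair of rows, MIR1244-2 and MIR621, with 1308 of the 3636 (36.0%). MIR1244-2 (ENSG00000283498, chr5:118974586-118974670, plus strand) had 88.2, 78.7 and 99.5 FPKM in TIPE2 and 176, 82.5 and 79.9 FPKM in Vector libraries. Vector 1 stood apart and the other 5 libraries overlapped, with a log2 change of -0.25 and a standard error of 0.30 (limma, adjusted p = 0.866). It lies opposite to an intron of DTWD2, on the other strand. Its whole sequence is also held by transcripts of PTMA, which encodes the abundant chromatin protein prothymosin alpha, and by MIR1244-1, MIR1244-3 and MIR1244-4. Fragments of these copies cannot be assigned with certainty. PTMA had 434, 486 and 478 FPKM in TIPE2 and 587, 465 and 452 FPKM in Vector libraries, so that Vector 1 was the highest library for both. Of the other copies, MIR1244-3 met the rule with 9.02 FPKM, MIR1244-4 had at most 2.12 FPKM in any library and MIR1244-1 held no fragment. MIR6859-1 and MIR6859-3, in introns of the pseudogenes WASH7P and WASH3P, were likewise held whole by other copies. Of the 76 rows, 9 had at least 1 stretch of 25 bases in a transcript of a gene other than the host, and 4 were held whole.

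MIR621 (ENSG00000207652, chr13:40810766-40810861, plus strand) overlapped no other gene and lay 654 bases from SLC25A15, a mitochondrial ornithine transporter on the same strand with 10.7 FPKM. It had 40.7, 34.6 and 54.3 FPKM in TIPE2 and 39.6, 43.2 and 51.0 FPKM in Vector libraries. The groups overlapped and the ratio of fragment rates, 0.962 with an exact 95% interval of 0.794 to 1.17, was the narrowest of the rows not shared with copies. Intervals of this kind cover counting error only. MIR4664, in an intron of the keratin-associated protein gene FAM83H, had 24.9, 24.2 and 24.5 FPKM in TIPE2 and 8.02, 21.3 and 12.9 FPKM in Vector libraries. All TIPE2 libraries lay above all Vector libraries, with Vector 2 close below (log2 change 0.86, standard error 0.28, limma adjusted p = 0.747). MIR4292, in an intron of the GTPase gene RABL6, had between 11.3 and 17.4 FPKM, and MIR4787, 77 bases from DOCK3, between 4.34 and 16.3 FPKM. Both overlapped between the groups. MIR6784, next to an exon of the phospholipase gene PLCD3, had between 6.61 and 13.2 FPKM, and MIR1254-1, in an intron of the coactivator gene CCAR1, between 6.53 and 11.2 FPKM.

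**Figure D2:**
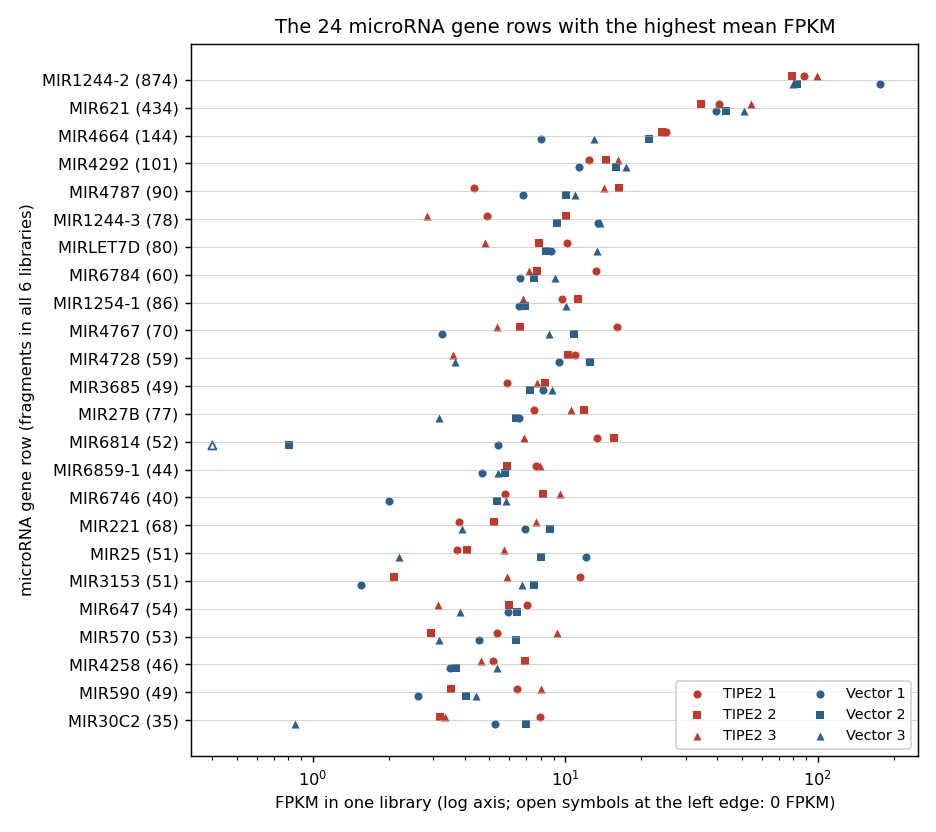
FPKM in each library (log axis) of the 24 microRNA gene rows with the highest mean, with the fragments in all 6 libraries in brackets; colour gives the group, symbol shape the library, and open symbols at the left edge are 0. Most rows overlap between the groups, Vector 1 stands apart for MIR1244-2, and MIR6814 is lower in the 3 Vector libraries.

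Rows with fragments lay mostly in introns. Each microRNA gene was classed by its overlap with genes of other types. Of the 76 rows, 59 (77.6%) lay in an intron of a gene on the same strand, 3 shared bases with an exon, 6 overlapped a gene on the opposite strand only and 8 overlapped none. Among all 1879 microRNA rows the intronic share was 50.6% and the exonic share 17.0%. Of 247 rows lying wholly inside an exon of another gene on the same strand, none held a fragment in any library, although the host of 87 of them had at least 10 FPKM. MIR21, the oncogenic microRNA best known in carcinoma, lies in an exon of VMP1 (69.3 FPKM) and MIR22 in an exon of MIR22HG (10.6 FPKM), and both were at 0. The 3 exonic rows that met the rule, MIR4442, MIR4260 and MIR4469, share only 32, 6 and 22 bases with exons of TOP2B, LAMB3 and RNF170. A value of 0 for a row inside an exon is thus no measure of whether its primary transcript is present.

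For intronic rows the share with fragments went with the level of the host. Fragments were found for 35 of 404 rows (8.66%) with a host under 1 FPKM, for 88 of 330 (26.7%) with a host of 1 to 10 FPKM, and for 89 of 217 (41.0%) with a host of at least 10 FPKM. The corresponding shares that met the rule were 1.49%, 6.67% and 14.3%. Rows with only a gene on the opposite strand held fragments in 15 of 124 (12.1%), 5 of 79 (6.33%) and 11 of 28 (39.3%). These shares are listed by the same levels of that gene, lowest level first. They fell before they rose, and the highest, over only 28 rows, was near the 41.0% of intronic rows. Among the 68 members with a host, Spearman's rho of member and host FPKM was 0.21, and the points share libraries. For 6 of the 68 the gene counted as host lies on the opposite strand. Of the 59 intronic members, 44 lay in protein-coding and 15 in non-coding or pseudogene hosts. Over the 53 with a host of at least 1 FPKM, the member had a median of 22.0% of the FPKM of its host, from 1.35% for MIR6819 in the myosin gene MYH9 to 666% for MIRLET7D in the lincRNA AL158152.2.

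**Figure D3:**
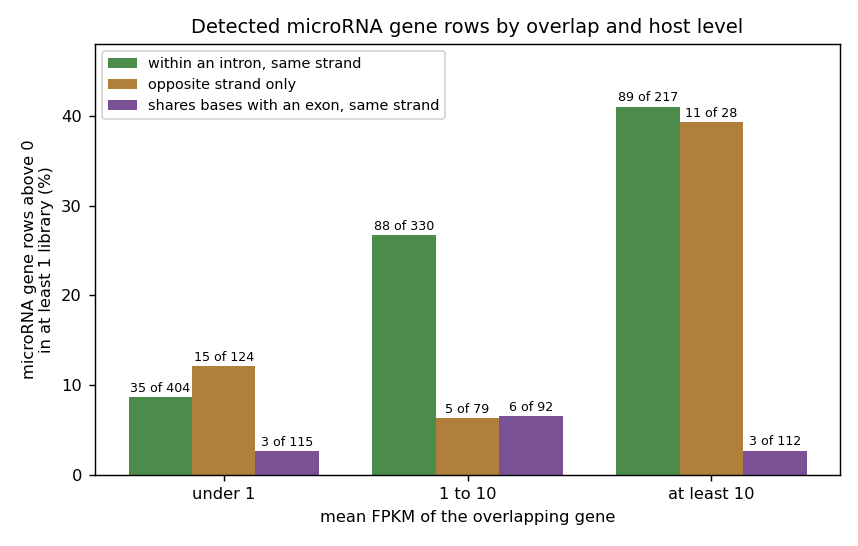
Percent of microRNA gene rows with a fragment in at least 1 library, by the mean FPKM of the overlapping gene and by the kind of overlap, with the rows counted above each bar. The bars for introns rise from 8.66% to 41.0% with the level of the host, while those for exons stay at or below 6.52%. The bars for the opposite strand are at 12.1%, 6.33% and 39.3%.

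Of the 59 intronic members, 13 began or ended at the base next to a host exon. Their introns were 210 to 2896 bases long, so none of these rows spanned its intron. Whether any of them is a mirtron was not tested. MIR4728 (chr17:39726495-39726561, plus strand) fills part of a 210-base intron of ERBB2, the receptor tyrosine kinase for which SKOV3 is known as an overexpressing line. It had 10.9, 10.2 and 3.58 FPKM in TIPE2 and 9.45, 12.6 and 3.65 FPKM in Vector libraries. TIPE2 3 and Vector 3 were the low libraries, the groups overlapped, and the mean was 1.36% of the 618 FPKM of ERBB2. MIR6835 in HMGA1 had 1.36% of its host as well and MIR6775 in the amino acid transporter gene SLC7A5 had 2.95%, while MIR6784 in PLCD3 had 12.0% and MIR6814 in RIPK4 20.3%. Of the other edge rows, MIR6746 had 22.0%, MIR6812 22.5%, and the copies MIR6859-3 and MIR6859-1 46.2% and 103.7%, the highest of the 13. Among all 168 microRNA rows with such an edge 7.74% met the rule, against 6.20% of all 951 intronic rows. These shares take no account of the level of the host. The share was 13.2% of 91 rows at 2 to 200 bases and 9.29% of 183 rows further off up to 1000 bases. It was 3.34% of 509 rows over 1000 bases from an exon. A host of at least 10 FPKM was found for 84 of the 168 edge rows and 217 of the 951 intronic rows. At that host level 10.7% of edge rows and 14.3% of all intronic rows met the rule. The other distances, nearest first, had 29.2% of 24 rows, 25% of 36 and 8.22% of 73. With a host of 1 to 10 FPKM edge rows and all intronic rows had 6.67%. These differences were not tested.

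In the comparison of TIPE2 with Vector no microRNA row passed the test. limma was fitted to log2(FPKM + 1) of the 12538 genes that averaged 1 FPKM or more, with Benjamini-Hochberg adjustment over all of them and a threshold of 0.05. By this rule 3 genes (0.0239%) were called, TNFAIP8L2 and GUCY1B1 as higher (0.016%) and PLVAP as lower (0.00798%), and 0 of the 76 rows, whose smallest adjusted p was 0.343. At an unadjusted p under 0.05 there were 12 of the 76 rows (15.8%), 8 higher and 4 lower in TIPE2, where 5.99% of all tested genes lay (3.01% higher and 2.97% lower). With the same test on log2 fragments scaled to library totals there were 2 of 76, so that share depended on the scale. The groups did not overlap for 9 rows (11.8%), 7 higher and 2 lower, where the share over all tested genes was 11.5% (6.18% higher and 5.31% lower). The log2 changes of the rows ran from -1.76 to 2.44 with a median of 0.16 (all tested genes -0.01), and 42 of 76 were positive (all tested genes 48.9%). Their median standard error was 0.48, against 0.14 over all tested genes.

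The 4 rows with the smallest p among those with a higher mean in TIPE2 were MIR2116, MIR6814, MIR23B and MIR27B. MIR6814 (ENSG00000275166, chr21:41746772-41746841, minus strand) had 13.4, 15.5 and 6.85 FPKM in TIPE2 and 5.43, 0.801 and 0 FPKM in Vector libraries, or 18, 19 and 8 fragments against 6, 1 and 0. The lowest TIPE2 value exceeded the highest Vector value, though TIPE2 3 and Vector 1 were close. The log2 change was 2.44 (standard error 0.64; limma, adjusted p = 0.662), and the ratio of fragment rates was 6.02 with an exact 95% interval of 2.69 to 15.8. Its host RIPK4, a kinase of keratinocyte differentiation, had 41.7, 43.3 and 39.1 FPKM in TIPE2 and 29.3, 26.7 and 26.6 FPKM in Vector libraries. These groups did not overlap either, and the log2 change of RIPK4 was 0.57 (standard error 0.11; limma, adjusted p = 0.343). MIR2116, in an intron of the myosin gene MYO1E, rested on 9 fragments: 2, 3 and 3 in TIPE2 and 0, 1 and 0 in Vector libraries. Its log2 change was 1.26 (standard error 0.24; limma, adjusted p = 0.343), and the ratio of rates, 7.49, had an interval of 1.00 to 332.

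MIR23B (chr9:95085208-95085304) and MIR27B (chr9:95085445-95085541) form a conserved cluster on the plus strand. MIR23B had 2.68, 8.85 and 3.09 FPKM in TIPE2 and 1.31, 1.74 and 1.26 FPKM in Vector libraries. MIR27B had 7.51, 11.8 and 10.5 FPKM in TIPE2 and 6.53, 6.36 and 3.15 FPKM in Vector libraries. The groups did not overlap for either, with TIPE2 2 the highest library of both. The log2 changes were 1.13 with a standard error of 0.35 and 0.82 (standard error 0.25; limma, adjusted p = 0.736 for each). Summed over both rows there were 19, 35 and 22 fragments in TIPE2 and 12, 14 and 7 in Vector libraries, a ratio of rates of 2.16 (exact 95% interval 1.42 to 3.35). The host C9orf3, an aminopeptidase gene, averaged 5.30 ± 0.501 FPKM (TIPE2) and 4.64 ± 0.160 FPKM (Vector; SD, n = 3), a log2 change of 0.16 (limma, adjusted p = 0.842). MIR24-1, the other microRNA of the cluster, held no fragment. It lies inside MIR3074 on the opposite strand, also at 0, and how fragments shared by overlapping genes were counted is not known.

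Among rows with a lower mean in TIPE2 the 4 with the smallest p were MIR210, MIR378J, MIR1244-3 and MIR6775. MIR210 (ENSG00000199038, chr11:568089-568198, minus strand), the microRNA best known for its induction by hypoxia, had 1.42, 1.56 and 0 FPKM in TIPE2 and 8.63, 4.08 and 3.89 FPKM in Vector libraries. That is 3, 3 and 0 fragments against 15, 8 and 7, with every TIPE2 library below every Vector library. The log2 change was -1.76 (standard error 0.41; limma, adjusted p = 0.592), and the ratio of rates was 0.187 with an exact 95% interval of 0.0637 to 0.457. Its host MIR210HG had 6.66, 8.68 and 6.74 FPKM in TIPE2 and 13.3, 8.85 and 5.17 FPKM in Vector libraries. The host overlapped between the groups, Vector 3 being its lowest library (log2 change -0.20, standard error 0.28, limma adjusted p = 0.880). MIR378J, in an intron of the helicase gene DDX52, held 2, 0 and 3 fragments in TIPE2 and 5, 4 and 4 in Vector libraries, with a ratio of rates of 0.360 (interval 0.101 to 1.08). MIR1244-3 (chr12:9239467-9239551, minus strand), whose fragments are uncertain as described above, had 4.90, 10.1 and 2.82 FPKM against 13.4, 9.24 and 13.7 FPKM, so that TIPE2 2 lay above Vector 2. MIR6775 had 3.77, 2.49 and 3.48 FPKM against 7.34, 4.88 and 3.55 FPKM, and TIPE2 1 lay above Vector 3; SLC7A5 had a log2 change of -0.42 (limma, adjusted p = 0.834).

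Over all 76 rows the interval of the rate ratio lay above 1 for 5 and below 1 for 4. The share over all tested genes was not computed, so these counts do not set the microRNA rows apart. Besides MIR6814, MIR2116, MIR23B, MIR27B, MIR210 and MIR1244-3, the rows counted were MIR4664 (1.201 to 2.45), MIR1244-2 (0.696 to 0.913) and MIR10B (0.0457 to 0.967). The intervals leave out the spread between libraries, which exceeded counting error as given above. Of the 11 Vector fragments of MIR10B, 9 were in Vector 3.

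**Figure D4:**
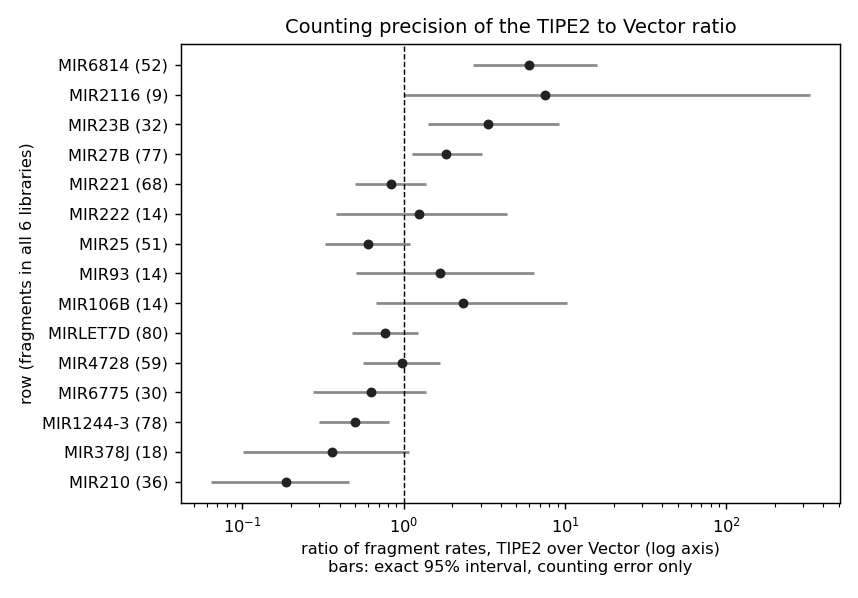
Ratio of fragment rates, TIPE2 over Vector (log axis), with exact 95% intervals for counting error only, for 15 microRNA gene rows with the fragments in brackets. The intervals of MIR6814, MIR23B and MIR27B lie above 1 and those of MIR210 and MIR1244-3 below it, while that of MIR2116 starts at 1.00 and runs to 332; the other 9 rows drawn have intervals that include 1.

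Estimated changes of rows and of their hosts differed in size and often in sign. Of 60 members with a tested host, 27 had the sign of the host. The median standard error of all 76 rows was 0.48, so signs of small changes are uncertain and no disagreement is read from this count. For 4 of the 60 the gene counted as host lies on the opposite strand. The tested hosts, 56 genes, had a median log2 change of 0.00 and a median standard error of 0.14, and none passed. At an unadjusted p under 0.05 there were 9 hosts (16.1%; all tested genes 5.99%), 5 higher and 4 lower, and 10 did not overlap (17.9%; all tested genes 11.5%), 5 in each direction. LAMB3, a laminin chain gene, averaged 63.9 ± 3.87 FPKM (TIPE2) and 83.4 ± 3.55 FPKM (Vector; SD, n = 3; log2 change -0.38, limma adjusted p = 0.743). The row at its exon edge, MIR4260, had 3.11, 1.71 and 4.47 FPKM against 0.945, 1.68 and 0 FPKM, the opposite order (log2 change 1.18, limma adjusted p = 0.746).

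**Figure D5:**
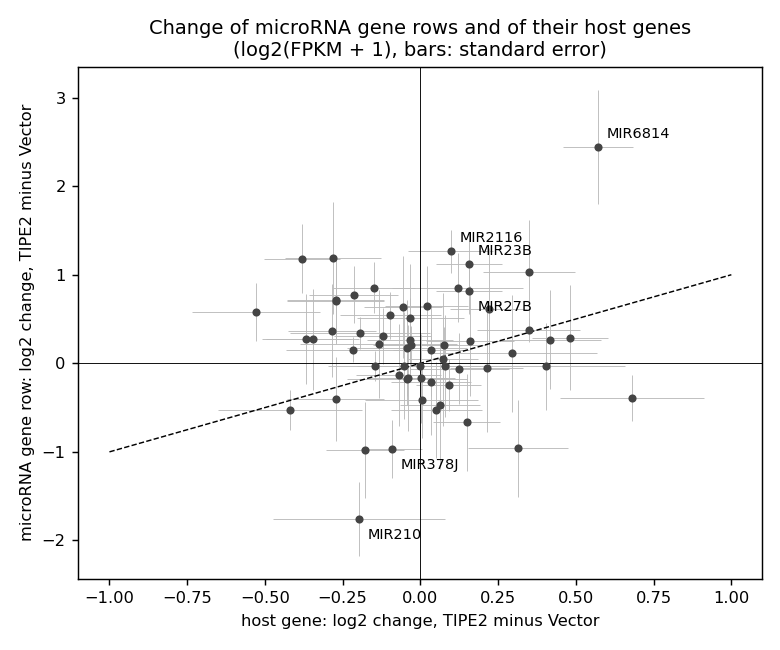
Log2 change (TIPE2 minus Vector, log2(FPKM + 1)) of each microRNA gene row against that of its host gene, with standard errors, for the 60 rows with a tested host. Genes on the opposite strand are included as hosts where only they overlap. The dashed line marks equal change. Hosts lie between -0.53 and 0.68 and rows between -1.76 and 2.44, with MIR6814 at the upper and MIR210 at the lower end.

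Neighbouring rows in 1 host were also summed. MIR221 and MIR222, growth-promoting microRNAs that target the cell cycle inhibitor CDKN1B, lie in MIR222HG. MIR221 had 3.79, 5.20 and 7.63 FPKM in TIPE2 and 6.90, 8.67 and 3.89 FPKM in Vector libraries, and MIR222 had between 0 and 3.27 FPKM. The groups overlapped for both, and their summed fragments, 40 in TIPE2 and 42 in Vector, gave a ratio of rates of 0.892 (exact 95% interval 0.564 to 1.41). MIR25, MIR93 and MIR106B, relatives of the miR-17 family cluster, lie in a 771-base intron of the replication licensing gene MCM7. MIR25 had 3.72, 4.09 and 5.71 FPKM in TIPE2 and 12.1, 8.01 and 2.19 FPKM in Vector libraries, with Vector 3 below all others. MIR93 and MIR106B, with 14 fragments each, had 1.67 and 1.65 FPKM on average, and the 3 rows together gave a ratio of 0.913 (interval 0.572 to 1.46).

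A list of 48 microRNA genes well known from cancer, epithelial and NF-kB biology was looked up. Of these, 8 met the rule, 7 lay below 1 FPKM and 33 held no fragment. Of the 33, 16 lie wholly inside an exon, among them MIR155 and MIR146A, induced by NF-kB, whose hosts were below 1 FPKM, and the members of the miR-17 cluster. Another 3, MIR29A, MIR15A and MIR205, share some bases with one. For the 14 with no base in an exon on the same strand, a count of 0 over the 6 libraries allows up to 3 fragments. That is between 0.264 and 0.427 FPKM depending on length. This limit leaves out fragments shared with other microRNA genes or with genes on the opposite strand, whose counting is not known. MIR200C and MIR141, guards of the epithelial state, were among the 14, and MIR200CHG was also at 0. Of the cluster on chromosome 1 with the same role, MIR429 had 5.02, 0.689 and 1.44 FPKM in TIPE2 and 2.29, 2.03 and 0.737 FPKM in Vector libraries, MIR200A held 7 fragments and MIR200B 3. MIRLET7D, a member of the growth-restraining let-7 family, had 10.2, 7.89 and 4.82 FPKM in TIPE2 and 8.73, 8.38 and 13.4 FPKM in Vector libraries. Its groups overlapped (log2 change -0.39, standard error 0.26, limma adjusted p = 0.842), and its neighbours MIRLET7A1 and MIRLET7F1 held 6 and 9 fragments. MIRLET7I held 16 fragments, MIRLET7A2 9 and MIR31, which lies in MIR31HG, 8; all 3 were at 0 in at least 2 libraries.

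Genes of the machinery that makes and loads microRNAs were covered by more fragments, and none passed. Of 34 listed, 32 were tested, 0 were called (all tested genes 0.0239%) and 0 had an unadjusted p under 0.05 (all tested genes 5.99%), with log2 changes between -0.26 and 0.33 and a median of 0.04. The groups did not overlap for 5 of the 32 (15.6%; all tested genes 11.5%), AGO1 and NCBP2 being higher and PRKRA, TSN and GEMIN4 lower in TIPE2. The 4 with the smallest p were TUT7, AGO1, PRKRA and ADAR. AGO1, an Argonaute, had 4.71, 4.78 and 4.59 FPKM in TIPE2 and 2.55, 4.25 and 4.51 FPKM in Vector libraries, Vector 1 being the low library (log2 change 0.28, standard error 0.17, limma adjusted p = 0.834). TUT7, a terminal uridylyltransferase that modifies let-7 precursors, had 4.52, 3.65 and 4.07 FPKM against 1.98, 3.95 and 3.40 FPKM, and Vector 1 was again the lowest. PRKRA, a DICER1 partner, averaged 15.9 ± 0.772 FPKM (TIPE2) and 18.0 ± 1.29 FPKM (Vector), and the RNA editing enzyme ADAR 35.7 ± 3.00 FPKM and 30.7 ± 4.62 FPKM (SD, n = 3). DROSHA had between 4.75 and 6.62 FPKM, DGCR8 between 9.43 and 12.6 FPKM and DICER1 between 2.95 and 5.07 FPKM over the 6 libraries. LIN28A, a let-7 repressor, held no fragment, and its paralogue LIN28B 1 fragment.

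Of 63 transcripts named as microRNA hosts, 9 were tested and none passed (all tested genes 0.0239%). MIR22HG had 12.8, 12.8 and 11.1 FPKM in TIPE2 and 10.0, 8.42 and 8.53 FPKM in Vector libraries. Its log2 change was 0.41 (standard error 0.11, limma adjusted p = 0.662). MIR22HG was the only 1 of the 9 whose groups did not overlap, 11.1% against 11.5% of all tested genes. MIR31HG had between 4.50 and 11.1 FPKM, with library 3 the highest in each group, MIR5689HG had between 1.44 and 4.48 FPKM, and 27 of the 63 held no fragment.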

How the data were processed

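RNA sequencing libraries of SKOV3 cells, 3 TIPE2 and 3 Vector by their titles, were analysed. The authors deposited FPKM values for 58735 Ensembl genes per library, per the file headers. CASAVA 1.7 and Bowtie are listed in the submitters' processing notes, with the mouse build mm8. All identifiers are nevertheless human and in GENCODE 29 (GRCh38), which gave types, positions and lengths. Which program counted fragments, and how it used strand and reads shared by genes, is not given in the sources used here. FPKM times merged exon length was a whole multiple of 1 step per library for 100% of non-zero values (tolerance 0.01), which gave fragments; the denominators were 96.3% to 103% of assigned fragments. limma 3.58.1 in R 4.3.3 (trend, robust) was fitted to log2(FPKM + 1) with no covariate; this scale understates changes of low genes. It was tested on simulated data only for genes with far more fragments than these rows. Python 3.11.15 and scipy 1.17.1 gave exact intervals, at 95%, for counting error only. A host is the overlapping gene of other type with the highest FPKM, taken from the opposite strand where only that strand holds one.

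Members and lists were chosen with earlier results of these data known. Named were the 8 rows highest in FPKM and in fragments, the 4 with the smallest p in each direction, the rows nearest the rule, the well-known ones, hosts, and of each other list the 4 with the smallest p. Other genes were named after their values were seen, among them PTMA, MIR4728, MIR4260, MIR25, MIR93 and MIR106B. Alternatives were a replicate block, each library left out, quantile normalization, other filters, a pseudocount of 0.1, log2 fragments scaled to library totals (prior 0.5) and limma without trend and robust settings.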

Additional observations from a re-analysis of the deposited data

How the results depend on the processing

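Under none of the 14 alternatives was a microRNA row called (smallest adjusted p of any row 0.185), and 2 to 19 of the rows tested had an unadjusted p under 0.05. Over all tested genes 2 were higher and 1 lower. With the replicate block these counts were 1 and 0, with no filter 1 and 0, with a minimum mean of 5 FPKM 1 and 0, and with a pseudocount of 0.1 FPKM 0 were lower. Without 1 library at a time they lay between 1 and 8 higher and between 0 and 3 lower, the highest without TIPE2 3. Deviations of libraries with the same replicate number from their group means had correlations of -0.23, 0.15 and 0.19, so the numbers were not taken as pairs. Among Vector libraries, TIPE2 1 correlated best with Vector 2 (0.978 in log2(FPKM + 1)). TIPE2 2 and TIPE2 3 correlated best with the Vector library of the same number (0.982 and 0.985). The median log2 change of the rows, 0.16, lay between 0.02 and 0.25 without 1 library, lowest without TIPE2 1; it was 0.03 without Vector 1 and 0.05 without Vector 3. The 4 rows with the smallest p in each direction, the only ones refitted singly, kept their sign under each alternative that tested them. They were picked by p in these same libraries. The groups overlapped only for MIR1244-3 and MIR6775, and without overlap leaving out a library cannot change the sign. The kept signs are therefore no separate evidence of a change. The log2 change of MIR6814 lay between 1.86 and 3.84, of MIR210 between -3.06 and -1.32, of MIR2116 between 1.14 and 3.28, of MIR23B between 0.68 (without TIPE2 2) and 1.5, of MIR27B between 0.53 (without Vector 3) and 0.99, of MIR378J between -2.12 and -0.57 (without TIPE2 2), of MIR1244-3 between -1.45 and -0.68 (without TIPE2 3) and of MIR6775 between -0.73 and -0.30 (without Vector 1). With a mean of at least 10 fragments only 12 rows were tested, with a median of 0.06, and with a minimum of 5 FPKM 21 rows. On log2 fragments scaled to library totals each singly refitted row had a larger standard error than in the main fit. It was 0.93 against 0.24 for MIR2116, 0.65 against 0.35 for MIR23B and 0.45 against 0.25 for MIR27B. The standard errors and the order by p thus depended on the scale. At a median of 22 fragments the microRNA rows that met the rule had a median standard error of 0.48, against 0.14 over all tested genes. The part of depth in this difference was not tested.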
